A study of Mus musculus with 4 samples.

Results

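The genes described here code for the extracellular matrix and for the integrins that bind it. They were chosen by gene name alone: collagen chains, laminin chains, integrin alpha and beta chains, thrombospondins, both nidogens, perlecan (*Hspg2*), agrin (*Agrn*), the lecticans *Acan*, *Bcan*, *Ncan* and *Vcan*, the tenascins *Tnc* and *Tnr*, and fibronectin (*Fn1*). Only integrin chains with a number in their symbol were taken, so chains named by a letter, such as alpha V, were not included. Peaks under 70 such names were found among the 13554 gene names of the peak lists. The CCI list held 206 of these peaks under 64 names, out of 33556 peaks in all. The sham list held 200 under 67 names, out of 34406. 61 names were in both lists. 69 of the 70 names were symbols in the RefSeq gene table. The remaining name, *Col4a3bp*, met the rule by its letters only, since it codes for a ceramide transfer protein and not for a collagen, and it is counted in the totals but given apart below.

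m6A, the methylation of adenosine within mRNA, was mapped by MeRIP-seq, in which fragments of poly(A) RNA are captured with an antibody against m6A (IP) and set against the same RNA before capture (input). Spinal cords were taken 7 days after surgery from C57BL/6J mice that were 6 to 8 weeks old. In the chronic constriction injury (CCI) group silk ligatures were tied loosely around the sciatic nerve, and in the sham group the nerve was handled in the same way without ligatures. Each group had a single library of each kind (1 IP, 1 input). No difference between CCI and sham has a replicate check, no p-value was computed, and every comparison describes these libraries only. The labels give neither the number of mice behind a library nor the segment or side of the cord. Each peak carries a fold enrichment, the ratio of IP over input signal that the authors computed, and a log10 false discovery rate, which is more negative for a stronger call of IP over input. The lists hold no read counts, so the depth behind a value is unknown and no error can be put on a fold enrichment. Coordinates are those of the lists, on the build GRCm38 that the submitters' processing notes name.

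The matrix of the central nervous system differs from that of other tissues. It is rich in hyaluronan and in lecticans, the chondroitin sulfate proteoglycans that tenascin-R crosslinks into perineuronal nets around neurons, whereas fibrillar collagens are largely found in the meninges, the nerve roots and around larger vessels. Basement membranes, made of collagen IV, laminins, nidogens and perlecan, wrap the vessels and the surface of the cord, and integrins, which pair an alpha with a beta chain, anchor cells to them. m6A is deposited during transcription, is most often found around the stop codon and in long internal exons, and bears on the stability and translation of an mRNA.

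The m6A peaks of the matrix and integrin genes were annotated to an exon outside the UTRs in a larger share than peaks in general. In the CCI list 54.4% of their peaks were annotated to an exon (112 of 206, 95% Wilson interval 47.5 to 61%), against 35.5% of all peaks (35 to 36%). In the sham list the share was 54.5% (109 of 200, 47.6 to 61.3%), against 35.1% of all peaks. 5′-UTR peaks made up 4.37% in CCI and 4% in sham, against 14.7% and 16.1% of all peaks. 3′-UTR peaks made up 41.3% and 41.5%, against 49.8% and 48.9%. These intervals cover counting error only, and several peaks can belong to 1 gene. When each gene and region was counted 1 time, the exon share was 43% in CCI and 44.6% in sham, against 32.7% and 32.1% over all genes counted in this way. The 5′-UTR share was then 8.41% and 7.14%, against 19.9% and 21.2%. The 3′-UTR share was no longer lower, at 48.6% and 48.2% against 47.5% and 46.6%. 3 members had an exon peak that is annotated to the exon of another gene ID (*Col4a1*, *Itga1* and *Itgb4*).

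**Figure D1:**
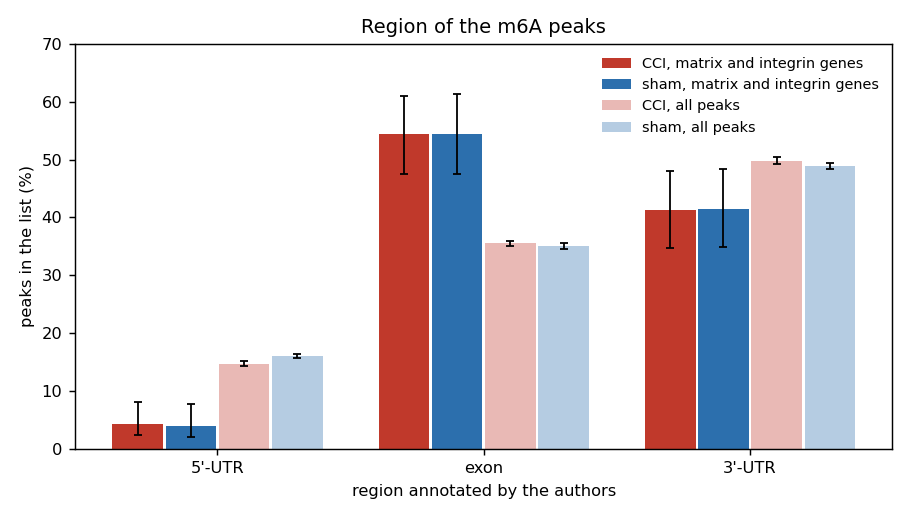
Share of m6A peaks (%, vertical axis) annotated to the 5′-UTR, exon or 3′-UTR, for the matrix and integrin genes (dark bars) and all peaks (pale bars) of the CCI (red) and sham (blue) lists. Error bars are 95% Wilson intervals of the counts. The exon bars of the matrix and integrin genes reach 54.4% and 54.5%, above the 35.5% and 35.1% of all peaks.

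The enrichment of these peaks was moderate. Their median fold enrichment was 4.49 in CCI and 4.84 in sham, against 5.73 and 5.70 over all peaks, and their median log10 false discovery rate was -9.47 and -9.87, against -15.3 and -16.8. In the CCI list 13 of the 206 peaks (6.31%) had a fold enrichment of at least 23.4, the value that 10% of that list reaches. In sham 15 of 200 (7.5%) were at or above the matching value of 23.2. The strongest peak of each gene ranged widely, from 1.76 for *Col3a1* in sham to 126 for *Col24a1*, also in sham.

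**Figure D2:**
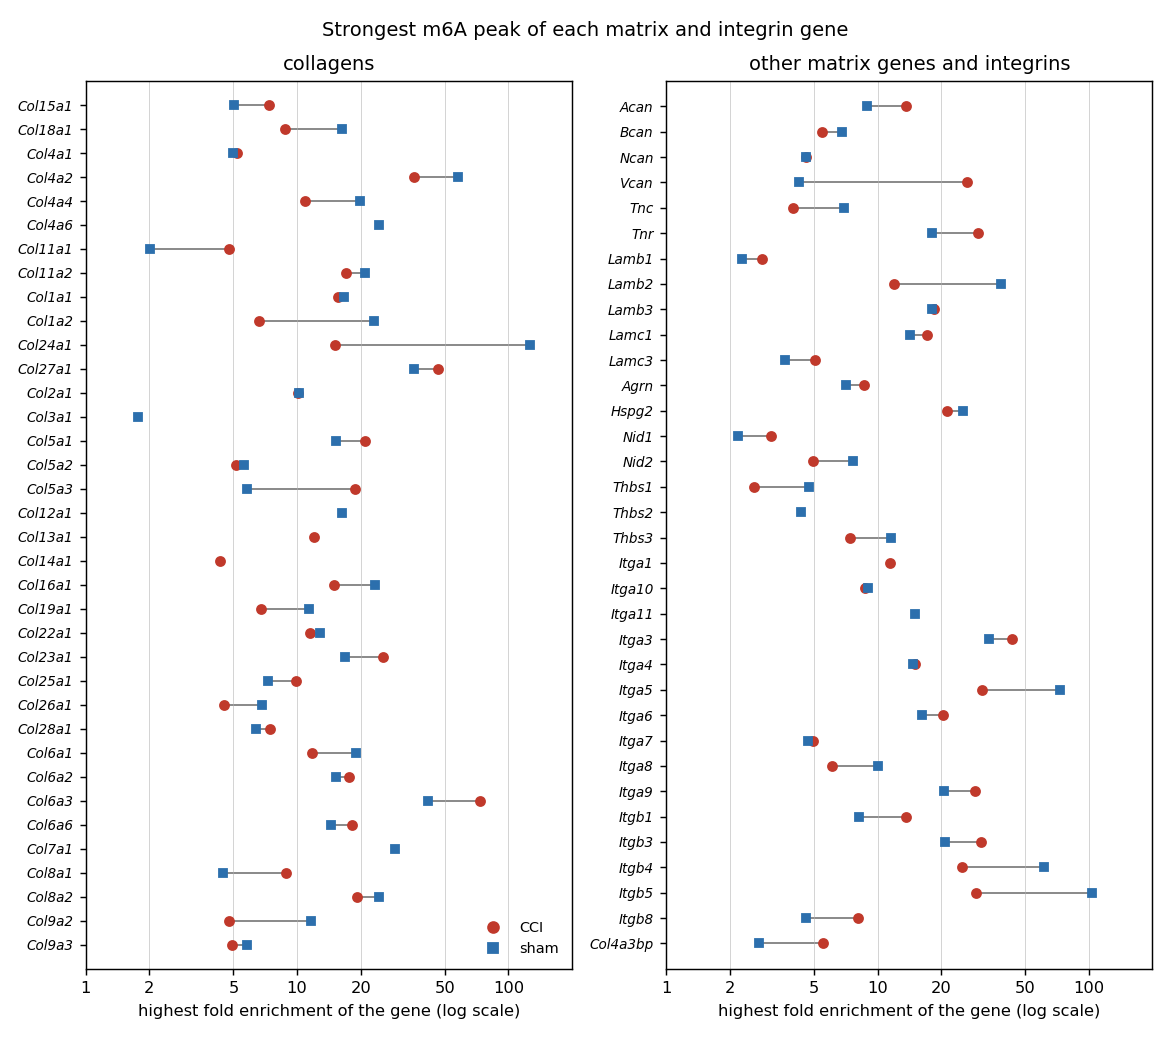
Highest fold enrichment (IP over input, log scale, horizontal axis) of any peak of each gene in the CCI list (red circles) and the sham list (blue squares), for the 36 collagen genes (left) and the 34 other names (right). A line joins a gene's values, and a gene with 1 symbol has a peak in 1 list only. The widest gaps with the sham value higher are those of *Col24a1* (15.1 and 126), *Itgb5* (29.2 and 103), *Col1a2* (6.58 and 23.2, on different peaks) and *Lamb2* (12 and 38.3), and the widest with CCI higher is that of *Vcan* (26.6 and 4.26).

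To compare the lists, each CCI peak was paired with the sham peak of the same gene that shared most of its exonic bases, where each was the other's best partner. This gave 147 pairs in 59 of the genes. Their median log2 ratio of CCI over sham fold enrichment was 0.03, the same as the 0.03 over all 27179 pairs, with the middle 50% of pairs between -0.45 and 0.42 (-0.37 and 0.43 over all pairs). The ratio was below 0 in 69 of the 147 pairs (46.9%), against 47.8% of all pairs. 8 pairs (5.44%, interval 2.78 to 10.4%) were at least 2-fold higher in CCI, beside 8.60% of all pairs, and 11 (7.48%, 4.23 to 12.9%) were at least 2-fold lower, beside 7.24%. At a limit of 1.5-fold 26 pairs (17.7%, 12.4 to 24.7%) were higher, beside 18.8% of all pairs, and 34 (23.1%, 17 to 30.6%) lower, beside 16.4%. At 3-fold 2 were higher and 4 lower (1.36% and 2.72%), beside 3.17% and 2.56%. In their median ratio and in the counts past 2-fold the matrix and integrin genes were near the background of the lists. The values that follow are single peaks of single libraries. In bulk tissue, fewer cells of a type and less RNA per cell cannot be told apart, and the ratio to input does not separate a cell type with other methylation from a change within a cell.

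The lecticans, which carry the chondroitin sulfate chains of perineuronal nets, had 23 peaks in each list. Their 18 pairs had a median log2 ratio of 0.08, and 13 of them were higher in CCI. Among the lecticans the pairs of neurocan (*Ncan*, secreted by neurons and astrocytes) had the median log2 ratio closest to even, 0.01. On exon 8 of 15 its peak at chr8:70108070-70108520 had a fold enrichment of 4.60 in CCI and 4.57 in sham, and its 3′-UTR peak at chr8:70096232-70097500 had 3.85 and 3.84. Its remaining 3 pairs were at 0.05, 0.58 and -0.50 on the log2 scale, the last on exon 7. A 3′-UTR peak of 3.35 at chr8:70094854-70095033 was in the CCI list only, at a log10 false discovery rate of -16.3. A weaker peak on exon 12, of 1.48 (-4.15), was in the sham list only. The symbols of both lists coincide for 3 of the 5 *Ncan* pairs in the plot of the lecticans.

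Aggrecan (*Acan*), the core proteoglycan of perineuronal nets, carried many of its peaks on exon 12 of 17, the long exon that codes for the chondroitin sulfate attachment region. 4 of its 6 CCI peaks and 3 of its 6 sham peaks lay there and covered 2013 and 1922 exonic bases. The 3 pairs on that exon had fold enrichments of 6.33 and 6.37, 5.62 and 5.38, and 6.80 and 8.87 in CCI and sham. In the 3′-UTR the *Acan* peak at chr7:79113777-79115039 had 11.7 in CCI and its sham partner 6.10, a log2 ratio of 0.94. The CCI peak was 901 exonic bases long against 331 in its sham partner. A further sham peak, of 2.95 at chr7:79114739-79114859, overlapped the same CCI peak. The fourth CCI peak on exon 12, of 13.6, had no overlap in sham and a log10 false discovery rate of -2.96.

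Versican (*Vcan*), a lectican of the general matrix and of oligodendrocyte precursors, had all 5 of its pairs higher in CCI. Among genes with 3 or more pairs, this held for 2 of the 21 members, beside 408 of all 3928 such genes. Its peaks lay mainly on exons 7 and 8 of 15, the 2 long exons for glycosaminoglycan attachment. On exon 8 the peak at chr13:89690261-89690471 had a fold enrichment of 26.6 in CCI and 4.26 in sham, a log2 ratio of 2.64, the highest of the 147 pairs. The neighbouring pair on the same exon, at chr13:89689752-89689842, was at 2.90 and 2.40, and the next, at chr13:89689393-89689602, at 4.43 and 3.59. The log10 false discovery rate of the pair with the wide gap was -7.11 in CCI and -3.94 in sham. On exon 7 CCI had 4 peaks over 812 exonic bases and sham 1 peak over 61, and 3 of those CCI peaks, at 3.65, 4.37 and 3.18, had no overlap in sham. In the 3′-UTR 2 weak *Vcan* peaks of 2.05 and 2.32 were in the sham list only.

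Brevican (*Bcan*), a lectican of the matrix around synapses, had 3 pairs and no common direction. The peak at chr3:87987531-87987919 in the 3′-UTR had 5.44 in CCI and 5.54 in sham. The peak at chr3:87992616-87993034 was higher in CCI (4.42 and 2.94) and the one at chr3:87993333-87994190 lower (4.80 and 6.75).

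Tenascin-R (*Tnr*), the oligodendrocyte glycoprotein that crosslinks lecticans, had 8 peaks in CCI and 6 in sham. All 4 pairs in its 3′-UTR were higher in CCI. From 5′ to 3′ they had fold enrichments of 30.0 and 18, 7.30 and 5.11, 3.30 and 2.17, and 3.25 and 2.45, log2 ratios of 0.74, 0.51, 0.60 and 0.41. The first, at chr1:159926121-159926721, was the strongest peak of any lectican or tenascin in either list. An exon pair was close to even, at 5.97 in CCI (annotated to exon 4 of 23) and 6.53 in sham (exon 3 of 23). The peaks of that pair share 40.1% of their joint bases. None of the 4 pairs in the 3′-UTR reached 2-fold, and peaks of 1 3′-UTR share their transcripts and libraries. Tenascin-C (*Tnc*), which glia make during development and after injury, had 1 pair, on exon 2 of 25, at 4.00 in CCI and 6.97 in sham with log10 false discovery rates of -3.41 and -2.91, from peaks that share 25.4% of their joint bases.

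**Figure D3:**
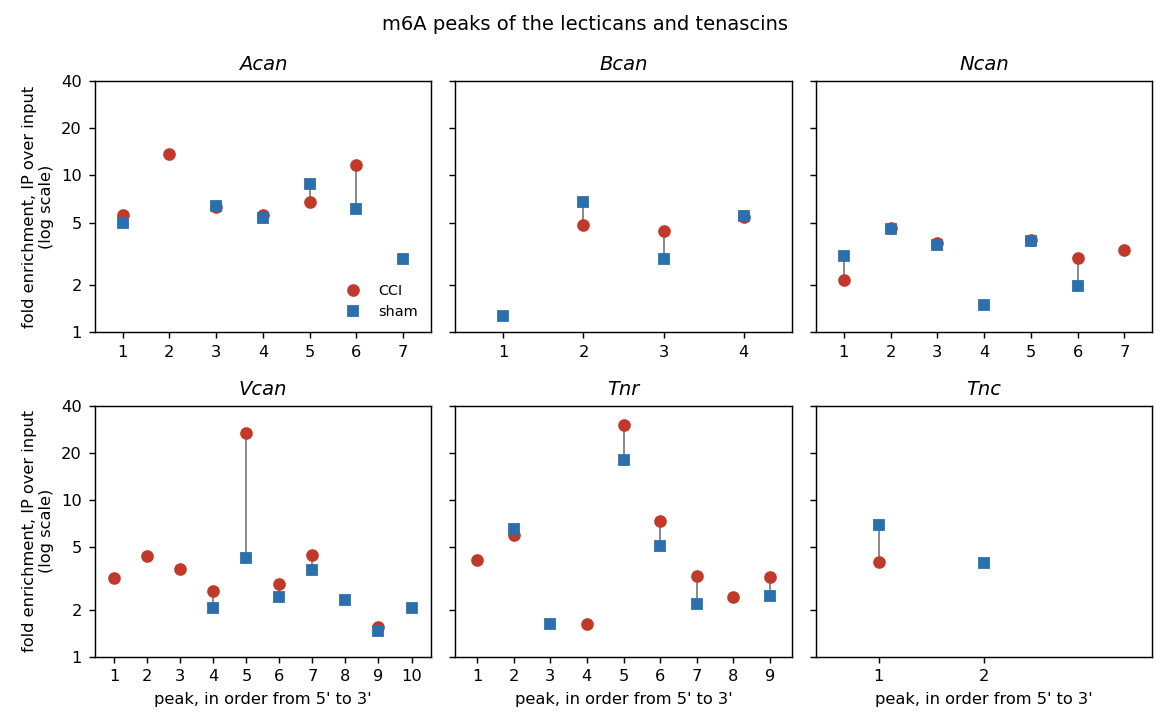
Fold enrichment (IP over input, log scale, vertical axis) of each m6A peak of the lecticans and tenascins in the CCI list (red circles) and the sham list (blue squares), in order from 5′ to 3′ along the gene (horizontal axis, rank only). A grey line joins a pair, and a symbol with no partner in its column is a peak that was not the best partner of a peak of the other list. The symbols of 3 *Ncan* pairs coincide, the 3′ peaks of *Tnr* (5, 6, 7 and 9) are all higher in CCI, and 1 *Vcan* peak stands at 26.6 in CCI and 4.26 in sham.

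Basement membrane genes were close to even between the lists. The collagens IV, XV and XVIII had 19 pairs with a median log2 ratio of -0.03, 9 higher and 10 lower. Collagen IV alpha 1 and alpha 2 chains, which assemble the network of the vascular basement membrane, are coded by neighbouring genes and had 11 pairs, 4 higher and 7 lower. The strongest was in the 3′-UTR of *Col4a2* at chr8:11449047-11449287, with 35.8 in CCI and 58.1 in sham. Its 4 exon pairs lay between 3.08 and 4.87 in both lists. The only pair past 2-fold among these collagens was in the 3′-UTR of *Col15a1*, a collagen of the basement membrane zone, at 7.39 and 3.39 (log2 ratio 1.12). *Col4a4* had 1 pair, at 10.9 and 19.8. A *Col4a1* pair at chr8:11204415 (5.21 and 4.65) was annotated to an exon of another gene ID, ENSMUSG00000085573, so its name is uncertain.

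Among the laminins, the cross-shaped heterotrimers of basement membranes, peaks were found under 5 names of beta and gamma chains. *Lamb2*, the beta 2 chain of vascular and synaptic laminins, had a 3′-UTR peak at chr9:108490093-108490530 with 12 in CCI and 38.3 in sham, a log2 ratio of -1.67 at log10 false discovery rates of -11.5 and -14.9. Its exon 28 peak was even, at 2.47 and 2.62. *Lamc1*, the gamma 1 chain shared by most laminins, had a strong 3′-UTR pair at 17.1 and 14.3 and a weaker one at 2.79 and 2.86. *Lamb3* had 1 peak, in the 5′-UTR, at 18.5 and 18.1.

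The linkers of the basement membrane had 10 pairs, with a median log2 ratio of 0.03. Perlecan (*Hspg2*), a heparan sulfate proteoglycan, had 2 3′-UTR pairs, at 21.4 and 25.4 and at 2.84 and 2.57. Agrin (*Agrn*), which clusters acetylcholine receptors at the neuromuscular synapse, had 5 pairs, of which 4 lay between -0.10 and 0.28 on the log2 scale. The fifth, on exon 1 at chr4:156195481-156197338, had 2.74 in CCI and 5.81 in sham (-1.08). The nidogens, which bridge laminin and collagen IV, went both ways, with *Nid1* pairs at 2.93 and 2.19 and at 3.13 and 1.69, and a *Nid2* pair at 4.24 and 7.24.

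Fibrillar collagens, the rope-forming collagens of connective tissue, had the widest range of all groups. Their 32 pairs ran from -3.06 to 1.69 on the log2 scale with a median of -0.05, and 6 of them were past 2-fold, 3 in each direction. The lowest of all 147 pairs was on *Col24a1*, a minor fibrillar collagen, at chr3:145459172-145474243 (exon 34 of 60). Its fold enrichment was 15.1 in CCI and 126 in sham, while its log10 false discovery rates were close, -31.8 and -33.8, and the peak covered 360 exonic bases in CCI and 539 in sham. The other 3 pairs of *Col24a1* were higher in CCI, at 7.30 and 5.35, 5.29 and 3.14, and 3.82 and 2.52. Further exons of *Col24a1* carried 1 peak in each list that was listed under *9530034A14Rik*, at 4.63 in CCI and 5.31 in sham.

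*Col27a1*, another minor fibrillar collagen, held 4 of these 6 pairs, and they split evenly by direction. On chromosome 4 the pairs starting at 63263746 (8.34 and 3.68, log2 ratio 1.18) and 63313696 (13.3 and 6.46, 1.04) were higher in CCI. Those starting at 63303078 (6.03 and 15.2, -1.33) and 63334063 (3.21 and 13.9, -2.11) were lower. Its strongest peak, 1048 exonic bases long on exon 3, stood at 46.5 and 35.9. The last of these 4 pairs had a log10 false discovery rate of -1.97 in CCI, so 1 side of it was a weak call. *Col5a3*, a chain of collagen V, had the highest ratio of the group, in the 3′-UTR at chr9:20770050-20770200, with 18.8 and 5.81 (1.69) at log10 false discovery rates of -4.60 and -4.26.

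*Col11a2*, a collagen XI chain, had the most peaks of the fibrillar group, 9 in CCI and 8 in sham, and 6 of its 7 pairs were lower in CCI. Their log2 ratios ran from -0.95 to 0.34 with a median of -0.36, and none reached 2-fold. Some of the lower pairs set a short CCI peak against a longer sham peak. Their exonic bases were 181 and 391 (46.3% of the joint bases shared), 481 and 989 (48.6%), and 121 and 210 (37.9%). The strongest *Col11a2* pair, on exon 23 of 64, was at 17.0 and 21.0. Collagen I, the main collagen of meninges and nerve sheaths, had 3′-UTR pairs in *Col1a1* at 15.7 and 16.6 and in *Col1a2* at 6.58 and 5.32. The strongest *Col1a2* peak was another, on exon 6, which the sham list alone held, at 23.2 with a log10 false discovery rate of -4.82. The same pair of values was found in 46 peaks of the sham list. *Col2a1*, the cartilage collagen, had 10.1 and 10.2.

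The remaining collagens had 30 pairs with a median log2 ratio of -0.10. Collagen VI, the beaded filament collagen that surrounds vessels and Schwann cells, went in different directions by chain. Of the 7 pairs of *Col6a1* and *Col6a2*, which lie close together on chromosome 10, 6 were lower in CCI, with a median of -0.26. The widest was in the 3′-UTR of *Col6a1* at chr10:76709332-76709782, with 3.86 and 9.98 (-1.37). All 3 *Col6a3* pairs were higher in CCI. Its exon 20 peak at chr1:90791963-90794048 had 73.5 in CCI, the highest value of any member in that list, and 41.8 in sham, and its exon 38 peak had 5.86 and 2.81 (1.06). The direction of a chain was not tested, and the pairs of a gene share their transcripts. Among genes with 3 or more pairs, 85.7% of the members had pairs in both directions, beside 81.1% of all such genes.

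Other collagens past 2-fold were *Col16a1*, a collagen that associates with fibrils, and *Col28a1*, a collagen of peripheral nerve. *Col16a1* had 2.36 and 5.23 (-1.15) in a pair annotated to its 3′-UTR, and 4 of its 5 pairs were lower in CCI. *Col28a1* had 2.93 and 6.16 on exon 32 (-1.07), where the CCI peak covered 61 exonic bases and its sham partner 210, and 7.43 and 4.13 in the 3′-UTR. *Col8a1* and *Col8a2*, the short-chain collagens of vessel walls, had 3 pairs, all higher in CCI, at 3.30 and 2.71, 19.3 and 10.8, and 13.7 and 7.55. The *Col8a1* pair compares adjoining peaks that share 0.8% of their joint bases. *Col9a2* and *Col9a3* had 1 pair each, at 4.78 and 7.44 and at 4.90 and 5.78. The transmembrane collagen *Col23a1* had its strongest pair in the 3′-UTR, at 25.5 and 16.9. The thrombospondins, which astrocytes secrete to promote synapse formation, had 2 pairs, *Thbs1* at 2.61 and 4.75 and *Thbs3* at 7.38 and 6.07.

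The integrins had the highest median fold enrichments of the groups with at least 10 peaks in the CCI list, 8.52 for alpha and 9.36 for beta chains. In sham the medians were 11.5 and 4.58, so the ranking did not hold there for beta chains. The fibrillar collagens (5.165) and the other collagens (6.39) had higher sham medians than those. Of the integrin peaks with a fold enrichment of 10 or above, 12 of 14 in CCI and 12 of 13 in sham lay in a UTR, beside 73% and 72.5% of all peaks at that level. 1 of the 2 others in CCI was the *Itga1* peak that is annotated to another gene ID. The 12 alpha chain pairs had a median log2 ratio of 0.04 and the 11 beta chain pairs 0.19.

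Of the alpha chains, *Itga5*, the fibronectin receptor chain, had 31.3 in CCI and 73.2 in sham in its 3′-UTR at chr15:103344286-103344614 (-1.23). The sham peak there covered 865 exonic bases against 329, and the CCI list held 3 *Itga5* peaks where sham held 1. *Itga9*, a receptor chain for tenascin-C, had 28.8 and 12.8 (1.17) at chr9:118897412-118897682. The adjoining peak downstream had 11.5 and 20.7 (-0.85), so that neighbouring peaks of 1 3′-UTR pointed in opposite directions. That downstream sham peak covered 1198 exonic bases against 809 in CCI, and it overlapped a further CCI peak of 8.34. *Itga3* and *Itga6*, laminin receptor chains, had strong 3′-UTR pairs at 43.5 and 33.7 and at 20.3 and 16.2. *Itga4* was even at 15.0 and 14.7, and *Itga7*, the laminin receptor chain of muscle and regrowing axons, at 4.95 and 4.69.

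Of the beta chains, *Itgb1*, the partner of most alpha chains, had a 5′-UTR pair at chr8:128685714-128685803 with 13.6 and 8.13 (0.74) and a weak 3′-UTR pair at 1.53 and 1.32. *Itgb3*, the chain of the vitronectin receptor, had 30.8 and 20.9. *Itgb4*, the partner of *Itga6* in Schwann cells and endothelium, had 25.0 and 61.6 in the 3′-UTR at chr11:116007992-116008412 (-1.30), while its 3 exon pairs lay between -0.20 and 0.19. *Itgb8*, which activates latent TGF-beta, had 8.12 and 4.58 in the 3′-UTR and 1.64 and 2.10 on exon 10.

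*Itgb5*, a partner of the alpha V chain, had the highest value of any integrin. Its 5′-UTR peak at chr16:33829665-33845007, on the plus strand, had a fold enrichment of 29.2 in CCI and 103 in sham, a log2 ratio of -1.82 at log10 false discovery rates of -14.6 and -27. Its 3′-UTR pair was at 27.4 and 20.3, on the other side of even. *Itgb5* and *Lamb3* were the 2 genes whose RefSeq transcript start lay inside a peak of both lists, and their first 30 transcribed bases, from RefSeq on GRCm38.p6, are given because their ratios differ (-1.82 and 0.03). The first 50 bases of *Itgb5* lay wholly inside its peaks, which begin at the start base, whereas 35 of the first 50 of *Lamb3* did, at the 3′ end of its peak. The capital marks the start base.
*Itgb5*, chr16:33829665-33829694, plus strand: Tggcggcccgcaggagaggggggaggagaa
*Lamb3*, chr1:193301994-193302023, plus strand: Agcagtggggctacacccagccagggagtc
The letters GGAC, the core of the sequence that m6A most often occupies, were searched on both strands in the first 50 transcribed bases. They were in neither start. 33.3% of the 32851 starts in the RefSeq start sequences hold them, as do 25 of the 59 starts (42.4%) of the 53 genes among the 70 that have a start there. The rest of the peaks could not be searched, as only start sequences were used here.

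**Figure D4:**
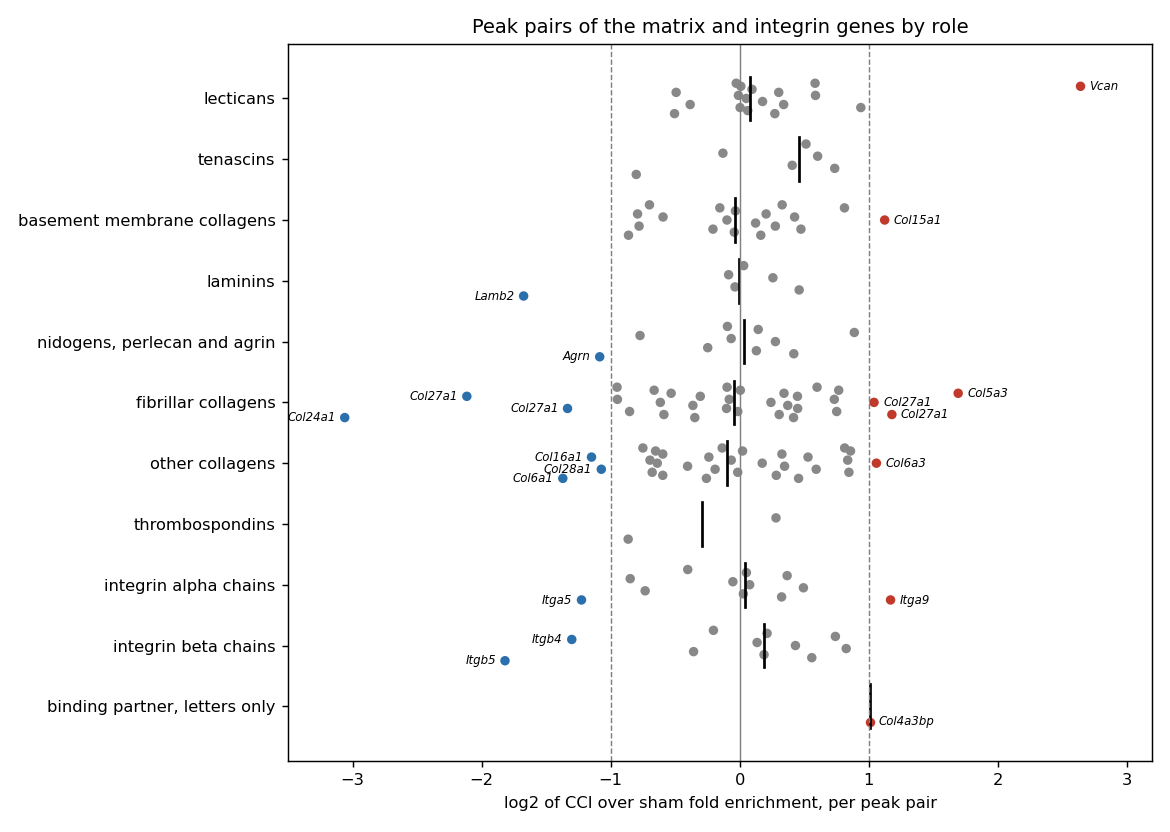
Log2 ratio of CCI over sham fold enrichment (horizontal axis) of each of the 147 peak pairs, by the role of the gene (rows). The vertical spread within a row is for legibility, black bars are medians, dashed lines mark 2-fold, and pairs past it are named (8 red, higher in CCI, and 11 blue, lower). The medians of the groups with at least 10 pairs lie between -0.10 and 0.19, and the extremes are *Col24a1* (-3.06) and *Vcan* (2.64).

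A peak called in 1 list only was more frequent among the matrix and integrin genes than in the lists as a whole. 51 of their 206 CCI peaks (24.8%, interval 19.4 to 31.1%) had no overlap with a sham peak of the same gene, beside 13.2% of all CCI peaks. In sham it was 50 of 200 (25%, 19.5 to 31.4%), beside 16.9%. The peaks in 1 list only were mostly short and weakly called. Their median exonic length was 121 bases in CCI and 91 in sham, against 240 and 268.5 for the shared ones, and their median log10 false discovery rate was -3.3 and -3.22, against -16 and -17. Some had a log10 rate of -10 or below. In CCI these were peaks of *Col11a1* (4.76 at -22.5), *Ncan* (3.35 at -16.3), *Col9a3* (2.83 at -11.6), *Col4a1* (1.66 at -11.3), *Tnr* (2.39 at -10.7) and *Col25a1* (9.70 at -10.4). In sham they were peaks of *Itgb5* (1.88 at -10.4) and *Col15a1* (4.47 at -10.1). The shares were also set side by side within classes of the false discovery rate. Of the peaks with a log10 rate from -10 to -50, 92.2% in CCI (84 to 96.4%) and 97% in sham (89.6 to 99.2%) were shared, against 96.9% and 96.3% of all peaks in that class. The 25 CCI and 34 sham peaks at -50 or below were all shared. From -3 to -10, 67.6% of the CCI peaks (56.1 to 77.3%) were shared, against 76.2% of all, and in sham 60.9% (49.1 to 71.5%), against 69.3%. Above -3, 33.3% of the CCI peaks (19.8 to 50.4%) were shared, against 53.9% of all, and in sham 32.3% (18.6 to 49.9%), against 37.1%.

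**Figure D5:**
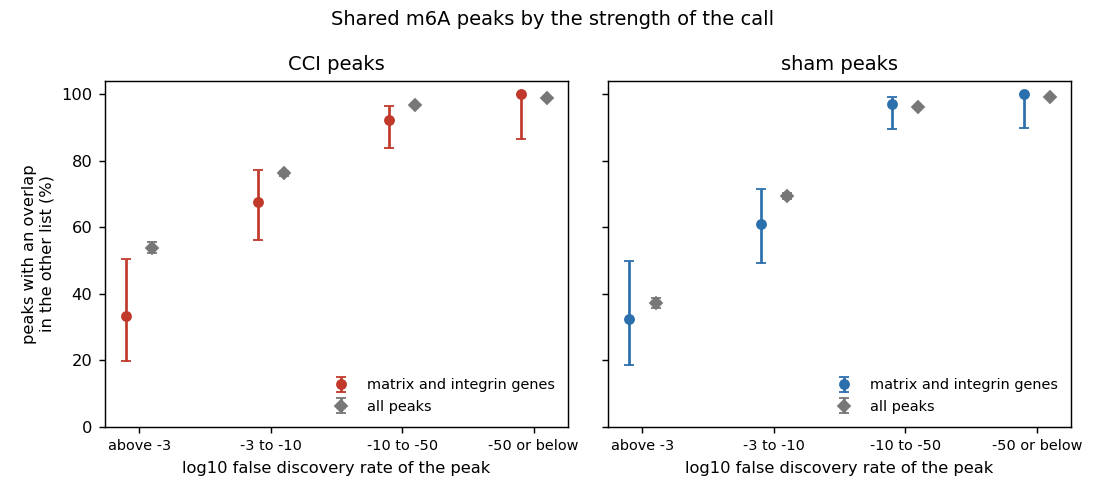
Share of peaks (%, vertical axis) with an overlap of at least 1 exonic base in the other list, by class of the peak's log10 false discovery rate (horizontal axis, stronger calls to the right), for CCI peaks (left) and sham peaks (right). Circles are the matrix and integrin genes, diamonds all peaks, and bars 95% Wilson intervals of the counts. The share climbs from 33.3% and 32.3% in the weakest class to 100% in the strongest.

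9 of the 70 genes (12.9%, 6.91 to 22.7%) had peaks in 1 list only, beside 13.2% of all gene names. *Col13a1*, *Col14a1* and *Itga1* were in the CCI list alone, and *Col12a1*, *Col3a1*, *Col4a6*, *Col7a1*, *Itga11* and *Thbs2* in the sham list alone. Each rested on 1 or 2 peaks. The only *Itga1* peak (11.5) was annotated to an exon of another gene ID, ENSMUSG00000114255. *Col7a1*, the anchoring fibril collagen, had the highest, 29.1 in sham on exon 51 of 119 at a log10 false discovery rate of -6.37, followed by *Col4a6* at 24.4 (-5.13).

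Several of these values recur across unrelated genes. The 24.4 at -5.13 of *Col4a6* and of a *Col8a2* peak was shared by 50 peaks of the sham list, the 13.6 at -2.96 of *Acan* and *Col23a1* by 71 of the CCI list, and the 12.8 at -2.13 of *Col22a1* by 175 of the sham list. In the sham list 28 peaks had the 29.1 at -6.37 of *Col7a1* and 154 the 15.1 at -2.71 of *Itga11*. In the CCI list 98 had the 11.5 at -2.33 of *Itga1*. 15 CCI peaks and 18 sham peaks of the matrix and integrin genes were in 1 list only with a fold enrichment at or above the median of their list, 7.28% (4.46 to 11.7%) and 9% (5.77 to 13.8%) of their peaks, beside 3.96% of all CCI and 6.78% of all sham peaks. The other genes with such peaks were *Col22a1*, *Col24a1*, *Col25a1*, *Col27a1*, *Col6a2*, *Col6a3*, *Col6a6*, *Col8a1* and *Itga4* in CCI, and *Col18a1*, *Col19a1*, *Col1a2*, *Col23a1*, *Col28a1*, *Col5a1*, *Col9a2* and *Thbs3* in sham. In *Col25a1*, a transmembrane collagen of neurons, 2 exon peaks of 9.70 and 9.90 in CCI had no sham partner under that name, while a sham peak of 14.3 over the same stretch was listed under *Gm43210*.

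Other genes of the matrix and of cell adhesion, from a list of 57, had a peak in both lists in 44 cases and in either in 50. Their 110 pairs had a median log2 ratio of 0.02. 8 were at least 2-fold higher in CCI and 11 at least 2-fold lower, beside the same 8.60% and 7.24% of all pairs. Of the receptors and surface proteoglycans, *Cspg5* (neuroglycan C) had a 5′-UTR pair at 24.9 and 137 and 2 3′-UTR pairs the other way, at 11.8 and 4.21 and at 8.04 and 3.24. *Sdc3*, the syndecan of axons, had 15.5 and 136 in the 5′-UTR, *Cd44*, the hyaluronan receptor, 3.31 and 7.79, and *Cspg4*, the proteoglycan of oligodendrocyte precursors, 9.38 and 20.9. Higher in CCI in that group were the glypicans *Gpc5* (29.2 and 7.02) and *Gpc6* (11.8 and 3.10) and the syndecan *Sdc1* (15.1 and 5.29). The widest gap of the 110 was that of *Bcar1*, an adaptor of integrin signalling, at 3.71 and 64.5 (log2 ratio -4.12), where the CCI peak was annotated to an exon and the sham peak to the 3′-UTR. The strongest *Bcar1* peak of the CCI list was another, at 38.1. *Hapln2*, the link protein of nodes of Ranvier, had 27.1 and 62.8, and *Has3*, a hyaluronan synthase, 30.8 and 6.07. Of the 14 pairs of collagen processing enzymes 4 were at least 2-fold lower (*Plod3*, *Loxl1*, *Loxl3* and *Loxl4*) and 1 higher (*P4ha3*, 31.4 and 12.6).

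The authors' table of differential peaks held 25 rows under 16 of the names, 0.52% of its 4812 rows, where the names held 0.614% of the CCI and 0.581% of the sham peaks. The 16 were *Acan*, *Bcan*, *Col11a1*, *Col11a2*, *Col15a1*, *Col4a1*, *Col6a1*, *Col9a2*, *Col9a3*, *Hspg2*, *Itga3*, *Itga6*, *Itgb5*, *Lamc1*, *Ncan* and *Tnr*. *Col11a2* had 5 of these rows, and *Bcan* and *Tnr* 3 each. The comparisons in that table were not used.

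Other genes whose RefSeq symbols meet the rule were not analysed here, among them *Fn1*, the laminin chains *Lama1*, *Lama2*, *Lama3*, *Lama4* and *Lama5*, the collagens *Col4a3*, *Col4a5*, *Col6a4*, *Col6a5*, *Col9a1*, *Col10a1*, *Col17a1* and *Col20a1*, the integrins *Itga2*, *Itga2b*, *Itgb2*, *Itgb2l*, *Itgb6* and *Itgb7*, *Thbs4*, and by their letters only *Itgb1bp1*, *Itgb1bp2* and *Itgb3bp*. *Col4a3bp* had 1 pair, at 5.53 and 2.75 (1.01).

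The lists hold no expression values, so the tissue could be checked only by which marker genes had a peak. All markers of oligodendrocytes (4), astrocytes (3), microglia (3), endothelium (3) and motor neurons (2) had a peak in both lists, as did 3 of 4 neuronal markers. Markers of cells outside the cord differed between the lists. Of the meningeal and perivascular fibroblast markers *Pdgfra* had a peak in CCI, and *Pdgfra*, *Lum* and *Slc6a13* in sham, while *Dcn* had none. Of the dorsal root ganglion neuron markers *Scn10a* and *Mrgprd* had a peak in sham, and none of the 3 had one in CCI. The part of these cells in the values of collagens they also express was not tested.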

How the data were processed

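MeRIP-seq peaks of mouse spinal cord were taken from 3 deposited tables: a list of peaks for each group (CCI and sham, each from 1 IP and 1 input library) and a table of peaks that differed. The authors computed the fold enrichment of a peak as the ratio of its IP to its input signal. Their deposited log10 false discovery rate, which reaches minus infinity, was handled as a score. The submitters' processing notes name fastp, HISAT2, HOMER, ChIPseeker and the build GRCm38, whereas the methods of the study name Cutadapt, bowtie and MACS2. The differential table was used only to count rows by gene name. Its log2 fold changes and p-values were not used. Whether peaks were called with regard to strand is not given in the sources used here, so antisense and overlapping genes are uncertain.

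Peaks were compared by their exonic blocks within the same gene ID, with an overlap of at least 1 bp, and pairs were mutual best partners by shared bases over their union. A pair past 2-fold counts as called. Shares carry 95% Wilson intervals, which cover counting error only, and depth is unknown. The named genes were, in each role group, those with the most peaks and the highest fold enrichment, those with a pair past 2-fold or a strong peak in 1 list only, and a fixed set of 10. Other genes given with values, among them *Col8a1*, *Col9a2*, *Itga7*, *Itgb3* and *Itgb8*, complete their family or role. The named genes and the lists of other matrix genes and markers were chosen with earlier results of these data known. The members follow the name rule alone. Overlap and pairing were run on simulated peaks of 1 block with at most 1 possible partner each. That simulation does not cover peaks that are split, merged or spread over several exons. Figures were drawn with matplotlib 3.10.9, and values were computed with scipy 1.17.1, pandas 2.3.3 and numpy 2.4.6 under Python 3.11.15.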

Additional observations from a re-analysis of the deposited data

How the results depend on the processing

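No paired analysis was possible because a group has no more than 1 library of each kind. The numbers of genes with a peak in each list, the median log2 ratio of the pairs and the number of other matrix genes with a peak kept their values within the limits set (1.5 times for counts and medians, 0.1 on the log2 scale, the 95% interval for shares) under all alternatives tried for them. Taking the strongest peak of each gene raised the median fold enrichment to 11.5 in CCI and 12.8 in sham. At 1.5-fold 26 pairs were higher and 34 lower, beside 18.8% and 16.4% of all pairs, and at 3-fold 2 and 4, beside 3.17% and 2.56%. When 50% of both peaks had to be shared, 36.4% of the CCI and 34.5% of the sham peaks were in 1 list only, beside 24.4% and 26.3% of all peaks. With each gene and region counted 1 time, the exon share was 43% in CCI and 44.6% in sham, beside 32.7% and 32.1% over all genes. In CCI the 3′-UTR share was 48.6%, beside 47.5%, and the 5′-UTR share 8.41%, beside 19.9%. The exon share thus owes part of its height to genes with many exon peaks, and the lower 3′-UTR share was not seen in this count. Counting an overlap with a peak of any gene name, chosen after seeing the data, gave 23.8% in CCI and 25% in sham. With 1 library per group and no counts, the depth and the spread between animals cannot be judged, and short peaks with a weak false discovery rate are the least secure values.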
